A study of Mus musculus with 75 samples.

Results

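Nascent hair cells (nascent HCs) were compared with wild-type outer hair cells (OHCs) to ask which genes of a mature OHC were missing from the nascent HCs and which genes of supporting cells (SCs) were still on in them. The cells were taken by their labels, 16 nascent HCs and 17 WT_P30 OHCs, which is 33 of the 75 mouse cochlear cells of the series. Each cell was 1 Smart-Seq library, and 16 WT_P60 SCs served as the reference for SC genes. All mice were labelled C57BL/6. The WT_P30 OHCs came from Slc26a5 CreER/+; Ai9/+ mice that received tamoxifen before collection at P30. The WT_P60 SCs came from Fgfr3-iCreER+; Ai9/+ mice that had tamoxifen from P30 and were collected at P60, and were mainly pillar cells and Deiters' cells. The nascent HCs came from mice labelled Fgfr3-Atoh1-Ikzf2-DTR, also P60 of age and given tamoxifen from P30. These carried Fgfr3-iCreER, a transgene whose Cre is active in SCs, mainly pillar and Deiters' cells. Tamoxifen turned on CAG-LSL-Atoh1 together with the Rosa26 knock-in for Ikzf2 in those SCs, and Slc26a5 DTR/+ let diphtheria toxin, given in the following days, remove the mice's own OHCs. Both the OHC mice and the nascent HC mice thus carried 1 changed allele of Slc26a5. The study named a Tdtomato+ cell a nascent HC when its library had Myo7a and lacked Slc26a5 (Prestin), so the levels of these genes in nascent HCs were fixed by the sorting and are given as a description.

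OHCs amplify sound. Prestin, the motor protein of their lateral wall, changes the length of the cell with its voltage, oncomodulin (Ocm) buffers calcium, potassium channels and the nicotinic receptor of the efferent synapse set the membrane potential, and the stereocilia hold the mechanotransduction channel at the tip links. Pillar and Deiters' cells are the SCs around the OHCs. They hold them in place, couple to each other through connexin gap junctions and keep Notch pathway genes and Sox factors on. Atoh1 is the transcription factor that starts hair cell fate, and Ikzf2 (Helios) is an Ikaros family factor of maturing OHCs.

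The labels name no animal for any cell, so each group counts as 1 sample, no test was made between groups, and ranges and SDs describe the spread over cells. Total counts were 7443598 to 22934062 in the nascent HCs and 4821150 to 7846560 in the OHCs. Nascent HCs held 6856 to 9045 genes at 1 count per 1000000 (CPM) or more and OHCs 3630 to 5431, and the ranges stayed apart, at 6839 to 8990 and 3632 to 5392, after every cell was thinned to 4264780 reads. Each library is listed with a series letter, which the sample titles and the columns of the count matrix do not carry. What the letters stand for is not described in the sources used here, and they are not read as a batch of the study. All OHCs have a letter that no other group has, so group, library series, age, genotype and treatment cannot be told apart. The mitochondrial share of counts was 1.41% to 8.44% in nascent HCs and 6.05% to 14.5% in OHCs. The 9 genes of the fixed stress and immediate early list over the filter, Fos and Egr1 among them, had a median difference of 4.11 on the log2 scale, with 7 over 4-fold higher in nascent HCs, and the summed level of the 12 listed genes was 480 to 12578 CPM in nascent HCs, 0.153 to 3310 CPM in OHCs and 1968 to 15225 CPM in SCs. The filter, a mean of the nascent HC and OHC levels of at least 10 CPM, admits a gene near 0 in OHCs only through nascent HCs. The 7 is thus not read against the share of all genes. The part of this list in the differences was not tested.

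Most markers of other cells were low in nascent HCs. The 5 blood, 6 macrophage and 4 endothelium markers had no gene over the filter, and their sums in nascent HCs reached at most 8.66, 0.180 and 21.9 CPM. In OHCs these sums reached 88.6, 94.0 and 162 CPM, with medians of 0. In SCs they reached 24.1, 0.167 and 292 CPM, with an endothelium median of 19.8 CPM. The 4 inner hair cell markers summed to at most 74.9 CPM in nascent HCs and 1313 CPM in OHCs, where Otof made up most of the sum and Slc17a8, the transporter that defines inner hair cells, was under the filter. Of 5 neuron markers, Rbfox3 was on in 6 nascent HCs (up to 555 CPM) and at 0 in every OHC, and Nefl was over 4-fold lower in nascent HCs. Mbp, 1 of 4 glia markers, reached 149 CPM in nascent HCs and was 0 in every OHC. Pdgfra, 1 of 5 fibroblast markers, had a median of 159.6 CPM in OHCs and was at 0 in 15 nascent HCs, while the collagens of that list were under the filter in both groups.

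Of 55291 genes, 9133 had a mean of the nascent HC and OHC levels of at least 10 CPM, where a level is the mean over the cells of a group on a TMM-scaled library size. In nascent HCs, 685 of them (7.5%) were over 4-fold lower than in OHCs and 1844 (20.2%) over 4-fold higher, on the scale of log2(level + 1). The median difference over all 9133 genes was 0.49, so the split depends on the scaling. With DESeq2 size factors the median was -0.12, with 1113 genes lower and 1372 higher. The share of higher genes among those past 4-fold fell from 72.9% to 55.2% with these factors, and was 64.8% on library size alone and 64.6% with TMMwsp.

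Genes over 4-fold higher in OHCs than in WT_P60 SCs are called OHC genes here, and there were 1347 of them in the set (14.7%). Of these, 510 (37.9%) were over 4-fold lower in nascent HCs than in OHCs and are called missing, 760 (56.4%) lay within 4-fold of OHCs, and 77 (5.72%) were over 4-fold higher. Genes over 4-fold higher in SCs than in OHCs, called SC genes, numbered 1223 (13.4%). Nascent HCs kept 737 of them (60.3%), over 4-fold above OHCs and within 4-fold of SCs, while 318 (26.0%) were not over 4-fold above OHCs, 56 (4.58%) lay between, and 112 (9.16%) exceeded SCs more than 4-fold. All these counts use the same 17 OHCs. The filter also uses the nascent HC level, so SC genes that were off in both groups left the set. With a filter on the OHC and SC levels alone there were 1143 OHC genes, 507 of them missing (44.4%), and 1588 SC genes, of which 734 (46.2%) were kept and 639 (40.2%) were not over 4-fold above OHCs. The plot of nascent HC against OHC levels shows both groups of genes as clouds off the diagonal.

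**Figure D1:**
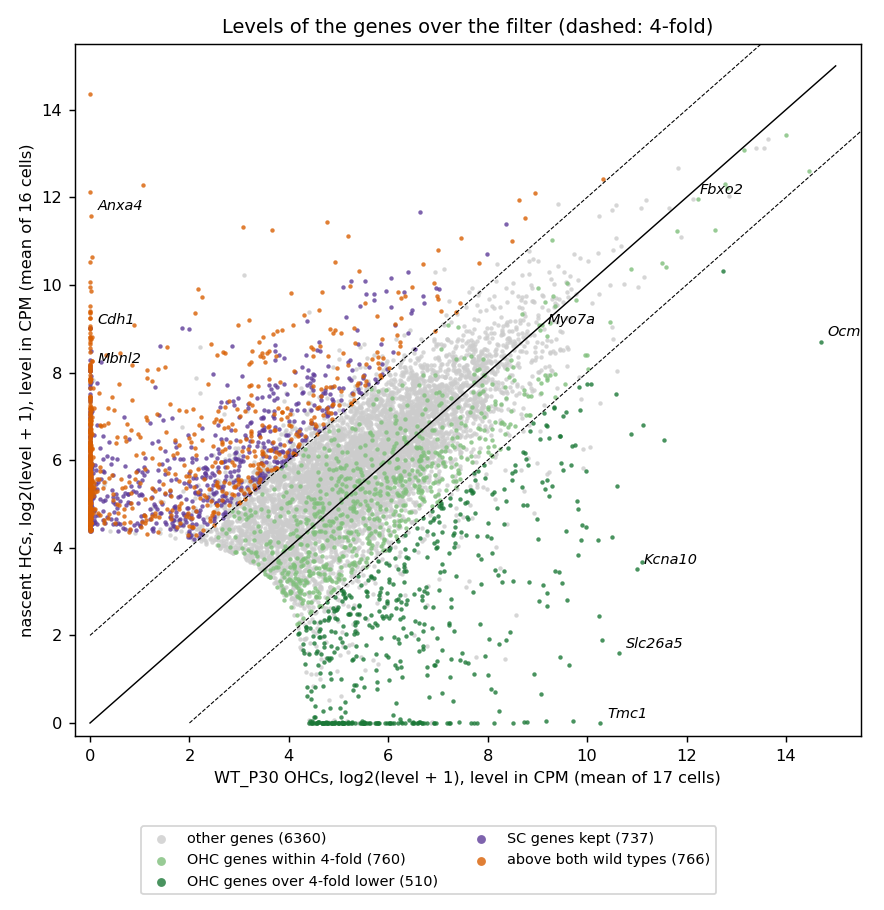
Each point is 1 of the 9133 genes, by its level in WT_P30 OHCs (horizontal, mean of 17 cells) and in nascent HCs (vertical, mean of 16 cells), both as log2(level + 1) with the level in CPM. Dashed lines mark 4-fold. Dark green points are the 510 missing OHC genes, light green the 760 OHC genes within 4-fold, purple the 737 SC genes kept and orange the 766 genes above both wild-type groups, many of which lie at an OHC level of 0.

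Ocm, the calcium buffer that marks mature OHCs (chr5:144019804-144026670, minus strand), was off or low in all nascent HCs but 1. In the 17 OHCs it ran from 8871 to 45183 CPM around a median of 26529.7. In 15 of the 16 nascent HCs it was at most 34.3 CPM, with 11 cells under 2 CPM, and nascent HC 5 alone held 6533 CPM. That cell set the group's level, 416 CPM with it and 7.90 CPM without it. The ratio of the OHC to the nascent HC level was 63.9 with all cells and 3364 without cell 5, and the groups did not overlap, although nascent HC 5 stood close to the lowest OHC. In WT_P60 SCs Ocm was at most 0.147 CPM.

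Slc26a5, which encodes Prestin, was 776 to 2453 CPM in OHCs (median 1591). Nascent HCs had 311 reads of it in all, a pooled 1.71 CPM with an exact Poisson 95% interval of 1.53 to 1.91 that covers counting error only, and 3 cells (1, 2 and 6) held 7.66 to 15.7 CPM while the other 13 were at 0.0722 CPM or less. The OHC level was 788 times that of nascent HCs, as the sorting requires. Cdh1 (E-cadherin), the adhesion molecule of epithelial junctions, ran the other way. It was 0 in every OHC, 49.9 to 1923 CPM in nascent HCs (median 444) and 6.53 to 226 CPM in SCs (median 78.0). Against the floor of 3 reads a cell, nascent HCs were at least 1178-fold above OHCs, and they were 5.75-fold above SCs. Every nascent HC thus had Cdh1 and Myo7a, at 91.2 to 1171 CPM against 193 to 956 CPM in OHCs, without Slc26a5 of OHC height. Of the 6 motor and lateral wall genes over the filter, Slc26a5 was over 4-fold lower, Tubb4b, a tubulin, was over 4-fold higher (470 to 3187 CPM against 0 to 303 CPM), and 4, the spectrins Sptan1 and Sptbn1 among them, lay within 4-fold. The median difference of these 6 genes was -0.18.

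**Figure D2:**
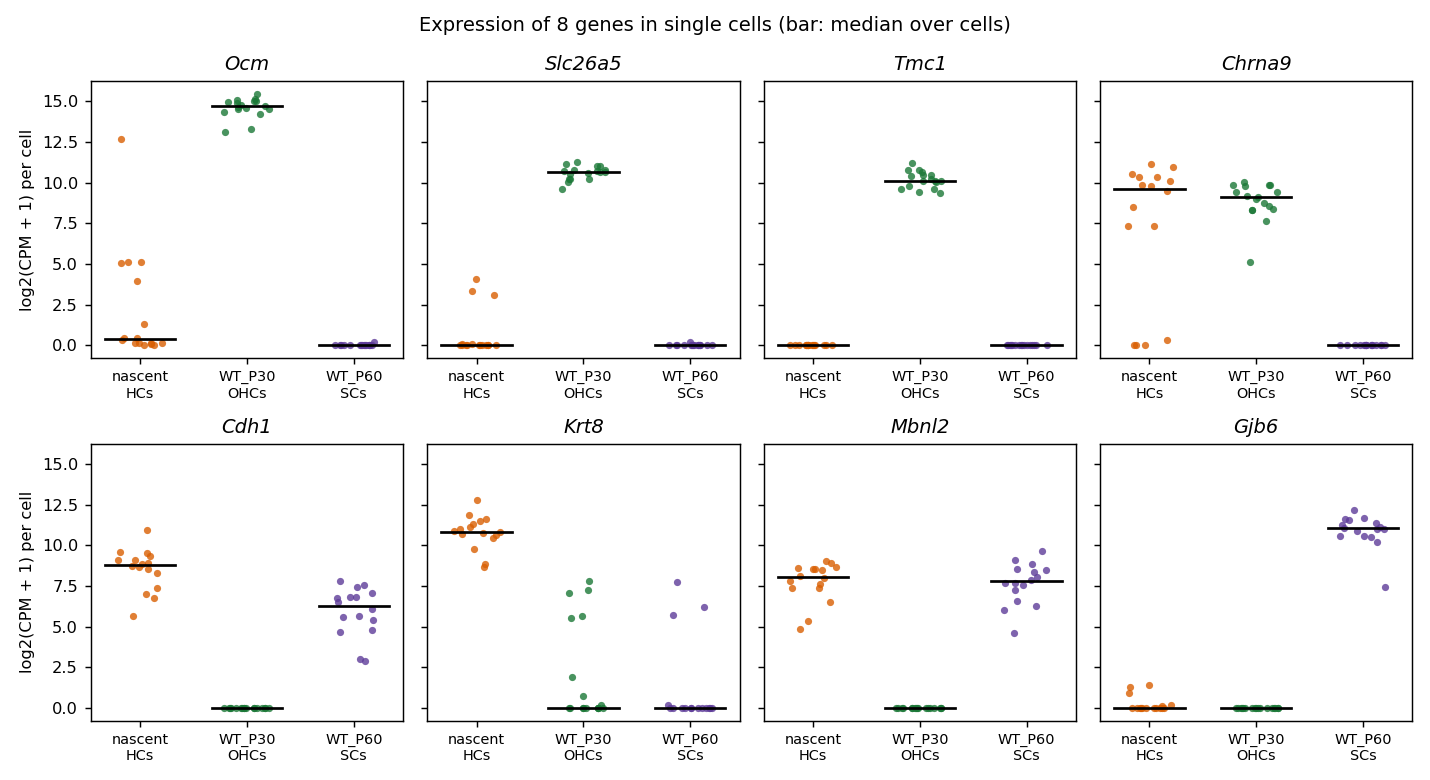
Each point is 1 cell and each bar the median of a group, on the vertical scale of log2(CPM + 1), for 8 genes in the 16 nascent HCs, 17 WT_P30 OHCs and 16 WT_P60 SCs. Ocm, Slc26a5 and Tmc1 are high in OHCs, Chrna9 is spread from 0 to 2288 CPM in nascent HCs, Cdh1, Krt8 and Mbnl2 are on in all nascent HCs, and Gjb6 is high in SCs alone.

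The sequences just upstream of 4 genes on which the comparison turns are given here as context, since each is on in all cells of 1 group and off or low in the other, with nascent HC 2 as the exception for Myo15: Slc26a5, Tmc1 and Myo15 among the missing genes and Mbnl2 among the kept ones. Each is the 250 bases before the gene's start in RefSeq on GRCm38.p6, 5′ to 3′ on the gene's strand, in lower case. Capitals mark CAGCTG, an E-box of the kind that Atoh1 can bind, and TGGGAA, which holds the GGGAA core of Ikaros family sites, on either strand (TTCCCA is TGGGAA read from the other strand, and CAGCTG reads the same on both). The windows are chr5:21865605-21865854 (-), chr19:20954203-20954452 (-), chr11:60469089-60469338 (+) and chr14:120275419-120275668 (+).
Slc26a5: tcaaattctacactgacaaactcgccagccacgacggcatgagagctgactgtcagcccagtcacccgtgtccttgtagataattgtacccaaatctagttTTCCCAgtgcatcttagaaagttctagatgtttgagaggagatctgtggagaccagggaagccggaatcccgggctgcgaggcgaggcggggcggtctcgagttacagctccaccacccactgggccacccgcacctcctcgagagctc
Tmc1: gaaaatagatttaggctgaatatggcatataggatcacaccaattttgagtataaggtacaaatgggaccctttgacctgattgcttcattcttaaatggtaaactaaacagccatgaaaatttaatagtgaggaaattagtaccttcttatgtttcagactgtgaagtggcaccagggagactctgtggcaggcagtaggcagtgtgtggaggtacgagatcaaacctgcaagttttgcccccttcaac
Myo15: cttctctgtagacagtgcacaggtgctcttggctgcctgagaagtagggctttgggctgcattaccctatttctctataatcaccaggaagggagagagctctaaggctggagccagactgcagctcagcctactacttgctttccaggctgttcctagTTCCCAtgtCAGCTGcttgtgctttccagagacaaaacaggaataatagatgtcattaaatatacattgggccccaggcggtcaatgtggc
Mbnl2: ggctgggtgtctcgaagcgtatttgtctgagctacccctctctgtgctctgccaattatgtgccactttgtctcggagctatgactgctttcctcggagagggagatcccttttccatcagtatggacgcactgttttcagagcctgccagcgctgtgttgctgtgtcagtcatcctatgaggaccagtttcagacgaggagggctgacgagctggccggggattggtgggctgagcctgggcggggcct

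Slc26a5 held 1 TGGGAA, Myo15 held 1 of each motif, and neither motif was found in the windows of Tmc1 and Mbnl2. Of the 27025 windows of that length, 12.8% held CAGCTG and 21.5% TGGGAA. Among the missing genes with a window (365 of 510) the shares were 13.2% and 19.2%, among the OHC genes within 4-fold (560 of 760) 12.0% and 16.4%, among the kept SC genes (587 of 737) 14.1% and 21.0%, and among the genes above both wild-type groups (560 of 766) 15.0% and 21.6%. Over the 7206 of 9133 genes of the set with a window they were 10.9% and 19.5%. A match is a string of letters and not a measured site.

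Mechanotransduction genes divided by component. Tmc1, the pore-forming channel protein (chr19:20783458-20954202, minus strand), was 656 to 2329 CPM in OHCs and had 0 reads in all 16 nascent HCs, so OHCs were at least 4392-fold higher. Myo15, the motor that carries proteins to stereocilia tips, was 539 to 3362 CPM in OHCs. It was seen in nascent HC 2 at 287 CPM, and in the other cells summed to 5 reads. Clrn1, an Usher syndrome protein of the hair bundle, was 0.117 to 802 CPM in OHCs (median 182) and above 1 CPM in 1 nascent HC (43.0 CPM). Tomt, which is needed to bring the channel to the bundle, was 19.2 to 219 CPM in OHCs and at most 52.7 CPM in nascent HCs, again in cell 2.

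The partners of the channel varied. Cib2, its calcium-binding subunit, was 1143 to 4056 CPM in nascent HCs and 2391 to 6255 CPM in OHCs, a ratio of 1.48, with overlapping ranges. Lhfpl5, which links the channel to the tip link, was 592 to 3707 CPM in OHCs and 0 to 4398 CPM in nascent HCs, 6 of which had at most 2.34 CPM. Pcdh15, the lower end of the tip link, had a median of 169 CPM in nascent HCs and 26.8 CPM in OHCs, and Cdh23, the upper end, 23.1 and 277 CPM, with at most 0.249 CPM in 8 nascent HCs. Tmie, another channel subunit, had medians of 52.9 and 128 CPM. Of the 16 genes of the list in the set, 6 were over 4-fold lower in nascent HCs and none higher, with a median difference of -1.32 against 0.49 over all genes, and 6 of its 14 OHC genes were missing, near the share over all OHC genes. DESeq2 size factors put 8 lower, with Cdh23 and Loxhd1 added. Leaving out nascent HC 1 (1765 CPM of Loxhd1) moved the Loxhd1 difference from -1.37 to -2.24.

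Of 20 stereocilia and cuticular plate genes, 10 were over 4-fold lower, beside 7.5% over all genes, and 2 higher. The median difference was -1.63, beside 0.49 over all genes. The 2 higher genes were at or near 0 in OHCs and could pass the filter only through their nascent HC level. The 2 is thus not read against the 20.2% of all genes. Of the 14 OHC genes in this list, 10 were missing, beside 37.9% over all OHC genes. The actin bundlers Espn and Pls1 stood at OHC level. Espn was 226 to 993 CPM in nascent HCs and 187 to 1467 CPM in OHCs, and the means of Pls1 were 544 ± 260 CPM (SD, n = 16 cells) and 545 ± 241 CPM (SD, n = 17 cells). Another crosslinker, Fscn2, had an OHC median of 184 CPM and reached 6.69 CPM in nascent HCs, where 14 of 16 cells had no read. Grxcr2, a protein of the stereocilia base, was 449 to 1488 CPM in OHCs. Nascent HC 2 held 349 CPM of it, and the remaining cells had 3 reads together. Lmo7, a protein of the cuticular plate, was 460 to 3877 CPM in OHCs and at most 362 CPM in nascent HCs, so no nascent HC reached the lowest OHC. Strc, which connects the tips of OHC stereocilia, was 217 to 1468 CPM in OHCs and 0 to 140 CPM in nascent HCs, a 15.0-fold difference of levels. Its exons overlap Ckmt1 on the other strand, at 211 CPM in nascent HCs and 270 CPM in OHCs, and the sources used here do not say whether strand was used in counting.

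Tprn (taperin), also of the stereocilia base, was on the other side. It had a median of 67.8 CPM in nascent HCs (0 to 331) and at most 0.539 CPM in OHCs. The second gene higher in nascent HCs, Gsn (gelsolin), was on in 2 of them, cell 7 at 899.7 CPM and cell 9 at 4079.7 CPM, with at most 0.578 CPM in the other 14 and no read in OHCs. Without cell 9 its difference of 8.29 became 5.93.

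Calcium-handling genes were split between low and retained ones. Sorcin (Sri), a calcium-binding protein, was 1188 to 3236 CPM in OHCs and 0.0880 to 351 CPM in nascent HCs, below SCs by medians (82.7 against 184 CPM). Cabp2, which tunes presynaptic calcium channels, was 243 to 1817 CPM in OHCs and 0 to 329 CPM in nascent HCs. Atp2b2, the calcium pump of the hair bundle, was 278 to 993 CPM in OHCs and 0 to 226 CPM in nascent HCs. The ranges did not overlap for Sri and Atp2b2, while the highest nascent HC lay above the lowest OHC for Cabp2. Of the other buffers, Calb1 (calbindin) had medians of 0.176 CPM in nascent HCs and 197 CPM in OHCs. Calb2 (calretinin) had medians of 1842 CPM in nascent HCs and 512 CPM in OHCs, and Pvalb (parvalbumin) ran from 0 to 2928 CPM and from 0.153 to 2165 CPM. The sign of the Pvalb difference, 0.18 on the log2 scale, changed with the scaling. Of the 12 genes, 4 were over 4-fold lower and 1 higher, with a median difference of -0.90, and the other scalings added Calb1 to the lower genes. Among the 10 of them that were OHC genes 4 were missing, near the 37.9% over all OHC genes. Itpr2, an SC gene that encodes a calcium release channel, was the higher one, at 0 to 242 CPM against 0 in every OHC.

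Potassium channels and the efferent synapse were the list with the lowest median difference of the 12, -4.86. Of its 9 genes over the filter 6 were over 4-fold lower and none higher, beside 7.5% lower and 20.2% higher over all genes. Of its 8 OHC genes 5 were missing, beside 37.9% over all OHC genes. The list includes the calcium pump Atp2a3, which the calcium list also holds. Kcna10, a voltage-gated channel, was 111 to 3787 CPM in OHCs. Nascent HC 1 held 141 CPM of it, and the median over nascent HCs was 0. The calcium-activated channels were low as well. Kcnma1 (BK) had no read in any nascent HC and a median of 62.2 CPM in OHCs, and Kcnn2 (SK2), which acts with the efferent receptor, had medians of 1.93 and 344 CPM.

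The subunits of the efferent receptor came apart. Chrna9 was 34.2 to 1043 CPM in OHCs and 161 to 2288 CPM in 12 nascent HCs, with the other 4 at 0.259 CPM or less. Chrna10, its partner, was 95.7 to 1080.1 CPM in OHCs and present in a single nascent HC, cell 2, at 127 CPM. Thus 12 nascent HCs had Chrna9 and 11 of these had no read of Chrna10. The exons of Chrna10 overlap Art1 on the other strand, which was at 81.1 CPM in OHCs and 2.99 CPM in nascent HCs. The difference of Chrna9, 0.46, became -0.19 with DESeq2 size factors.

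At the ribbon synapse, Cacna1d, the calcium channel of transmitter release, was 81.1 to 2374 CPM in OHCs and at most 46.5 CPM in nascent HCs. Otof (otoferlin), the calcium sensor of release, had a median of 405 CPM in OHCs, where 14 of 17 cells reached 1 CPM, and 4 reads over all nascent HCs. Ctbp2, which includes the ribbon protein Ribeye, had medians of 73.6 CPM in OHCs and 0.991 CPM in nascent HCs. The scaffold gene Rims2 was the reverse, on in 13 nascent HCs (median 58.6 CPM) with 3 reads in OHCs, and Pclo (piccolo) had medians of 66.5 and 4.05 CPM. In all, 3 of 9 genes were lower and 2 higher, and with DESeq2 size factors 4 were lower and 1 higher. The share of higher genes was near the 20.2% over all genes, and 3 of the 7 OHC genes were missing, near the 37.9% over all OHC genes.

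Among transcription and splicing factors, Pou4f3, which hair cells need to survive, was 121 to 1139 CPM in OHCs and present above 3 CPM in nascent HC 2 alone (559 CPM). Lbh, a transcription cofactor of OHCs, was 144 to 986 CPM in OHCs and 0 to 126 CPM in nascent HCs. Rbm24, an RNA-binding protein of hair cells, had medians of 486 and 0.125 CPM, though cell 2 held 771 CPM. Gfi1, a target of Atoh1 and Pou4f3, had medians of 206 CPM in OHCs and 23.7 CPM in nascent HCs. Barhl1 and Lhx3, homeobox factors of hair cells, were not missing. Barhl1 had medians of 238 CPM in nascent HCs and 70.2 CPM in OHCs, and Lhx3 98.9 and 0.153 CPM. Atoh1 was 1329.8 to 16442 CPM in nascent HCs and above 0 in 1 of 17 OHCs (18.4 CPM). Ikzf2 was 44.9 to 569.9 CPM in nascent HCs and 35.5 to 522 CPM in OHCs. Both counts in nascent HCs include reads of the transgenes, which cannot be told apart from the genes' own. Of the 14 genes, 5 were lower, beside 7.5% over all genes, and 4 higher, with a median difference of -0.57 beside 0.49 over all genes. Genes near 0 in OHCs, such as Atoh1, could pass the filter only through their nascent HC level. The 4 is thus not read against the 20.2% of all genes. Lhx3 counted as higher through cell 2 (2043 CPM), without which its difference of 2.91 became 1.88.

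Of the listed genes that developing hair cells pass through, most of those over the filter were high. Dll3 and Jag2, Notch ligands, were on in all 16 nascent HCs, Dll3 at 86.8 to 1987 CPM against 0 in every OHC and Jag2 at 18.3 to 1010.1 CPM against an OHC median of 4.18 CPM. Hes6, a target of Atoh1, was 376 to 3480.5 CPM in nascent HCs and 0 to 134 CPM in OHCs. Neurod6, a neuronal bHLH factor, was 71.9 to 1021 CPM and had no read in OHCs or SCs, at least 1113-fold above OHCs. Insm1, which keeps embryonic OHCs from becoming inner hair cells, had medians of 96.6 and 0 CPM. Of 15 listed genes 12 passed the filter. Of these, 10 were over 4-fold higher and 2 lower, Pcp4 and Srrm3, with a median difference of 3.77. Bcl11b, Rprm and Sox11 were under the filter. Bcl11b was at 0 in all nascent HCs but cell 2 (23.9 CPM), Sox11 was on in 2 cells and Rprm in 6. Genes at 0 in OHCs, such as Dll3 and Neurod6, could pass the filter only through their nascent HC level. The 10 is thus not read against the 20.2% of all genes. Tubb3 and Sox4 counted as higher through cell 15, without which their differences of 2.59 and 2.43 became 0.95 and 1.87, and Sox4 also lay within 4-fold with DESeq2 size factors. Pcp4, a small neuronal protein, was 254 to 1272 CPM in OHCs and above 3 CPM in nascent HC 2 alone (26.2 CPM).

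**Figure D3:**
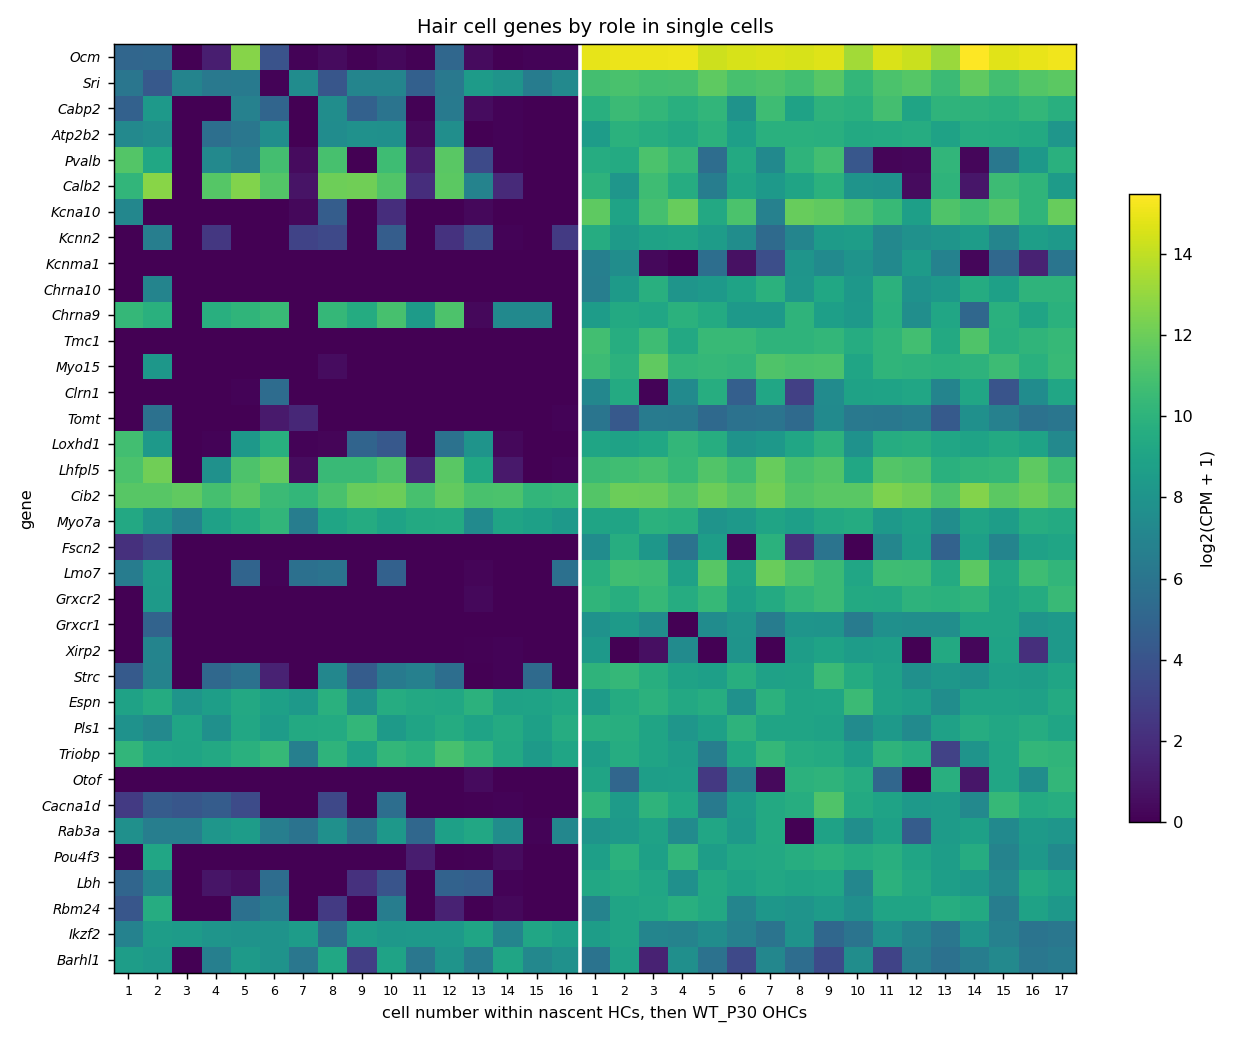
Rows are hair cell genes by role, columns the 16 nascent HCs and, right of the white line, the 17 WT_P30 OHCs, and colour is log2(CPM + 1). The Tmc1 row is dark across all nascent HCs, and rows such as Grxcr2 and Pou4f3 are dark there except in cell 2. Cib2, Myo7a, Espn and Pls1 are filled in both groups.

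The missing genes with the largest differences, in the lists or not, among those whose ranges did not overlap were Tmc1, Chst2, Fcrlb, Slc26a5, Dnm3, Pcp4, Cables1 and Paqr9. Chst2, a sulfotransferase of glycans, was 129 to 1404 CPM in OHCs and had 7 reads in 1 nascent HC. Fcrlb, an Fc receptor-like protein, was 92.2 to 1183 CPM in OHCs and had 6 reads over the nascent HCs. Dnm3, a dynamin of membrane scission, was 151 to 1354 CPM in OHCs and 9.01 CPM in nascent HC 2, with at most 0.117 CPM elsewhere. Cables1, a cyclin-dependent kinase adaptor, was 22.8 to 868 CPM in OHCs and at most 3.21 CPM in nascent HCs, and overlaps Gm6277 on the other strand, which was 103 CPM in OHCs. Slc45a3, a solute carrier, was lower without being an OHC gene. It had no read in nascent HCs and medians of 126 CPM in OHCs and 58.7 CPM in SCs, so it was at least 541-fold and 221-fold lower in nascent HCs. In 43 genes of the set over 4-fold lower, every nascent HC lay below every OHC, and in 76 genes over 4-fold higher every nascent HC lay above every OHC.

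The SC genes kept by nascent HCs with the largest separated differences from OHCs were Mbnl2, Inpp5j, Mpzl1, Sh3bgrl, Nipal2, Cyb5r3, Clic1 and Gca. Mbnl2, a regulator of RNA splicing (chr14:120275669-120431697, plus strand), was 27.4 to 516 CPM in nascent HCs and 22.9 to 809 CPM in SCs, with a ratio of levels of 0.990, and had no read in any OHC, at least 631-fold less. Inpp5j, a phosphoinositide phosphatase, had medians of 265 CPM in nascent HCs and 92.9 CPM in SCs. Nipal2 (medians 139 and 299.9 CPM), Cyb5r3 (294 and 906 CPM) and Clic1 (88.2 and 125 CPM) were nearer to SCs than to OHCs, where Nipal2 had no read and Cyb5r3 and Clic1 reached 17.6 and 0.238 CPM. Gca overlaps Kcnh7 on the other strand, which was 115 CPM in nascent HCs, and the Gca value of 5.15 to 356 CPM may hold reads of it.

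Of 20 regulators of SC identity and of the Notch pathway, 14 passed the filter and 12 were over 4-fold higher in nascent HCs than in OHCs, with a median difference of 4.92, and 1 was lower, or 2 with DESeq2 size factors. Of the 12, 9 were kept SC genes and 3 were above both wild-type groups. Sox10, Hes5, Hey2, Notch1, Notch2 and Cdkn1b were under the filter. Genes at or near 0 in OHCs, such as Sox2, Sox9 and Hes1, could pass it only through their nascent HC level, so the count is not read against the 20.2% of all genes. Sox2, the SC and progenitor factor, was on in 10 nascent HCs at up to 97.3 CPM (median 17.2) and 0 in every OHC, against an SC median of 41.5 CPM. Prox1, another factor of pillar and Deiters' cells, was 3.76 to 209 CPM in nascent HCs and 0 to 195 CPM in SCs, with 1 read in the OHCs. Fgfr3, whose promoter drives the Cre, was 22.5 to 827 CPM in nascent HCs, 272 to 1907 CPM in SCs and above 0 in 3 OHCs. The Notch effector Hes1 had medians of 51.7 CPM in nascent HCs and 64.6 CPM in SCs and no read in OHCs. Id2 and Id3, inhibitors of bHLH factors such as Atoh1, were on in all 16 nascent HCs, Id2 at 233 to 8714 CPM (median 2744) against medians of 47.3 CPM in OHCs and 1178 CPM in SCs, and Id3 at 17.9 to 1358 CPM. Sox9 was at 0 in all OHCs and had a nascent HC median of 40.1 CPM, but cell 13 held 2183 CPM and the level of 261 CPM fell to 133 CPM without it. Id4 went the other way and was over 4-fold lower, with medians of 34.1 CPM in nascent HCs, 120.4 CPM in OHCs and 323 CPM in SCs, and Rorb, 613 to 1535 CPM in SCs, was 0 to 167 CPM in nascent HCs.

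Genes of the differentiated pillar and Deiters' cell were mixed. Of the 26 listed, 13 passed the filter, 9 of them over 4-fold above OHCs (8 under each other scaling, without Tuba1b) and none below. The other 13 fell under the filter, which uses the levels of both groups. The 9 is thus not read against the 20.2% of all genes. Of the 9, 3 were kept SC genes and 3 were above both wild-type groups, Slc1a3 and Lgr5 among the latter. The 9 were often carried by some of the cells: S100b, Cryab, Kcnj16, Ndrg2, Otog and Slc1a3 reached 1 CPM, counted before the TMM scaling, in 4 to 8 of the 16 nascent HCs, and Lgr5 in 15. Gjb2 and Gjb6, the connexins of the cochlear gap junctions, were 288 to 1163 CPM and 168 to 4656 CPM in SCs. In nascent HCs Gjb2 was at most 15.4 CPM and Gjb6 at most 1.64 CPM, and the 56 reads of Gjb6 gave a pooled 0.308 CPM (exact Poisson 95% interval 0.233 to 0.400). Kcnj10, the inward rectifier of SCs, was 82.4 to 907 CPM in SCs and at most 66.8 CPM in nascent HCs, where 13 cells had no read. Fxyd6, a regulator of the sodium pump, had an SC median of 493 CPM and 12 reads over the nascent HCs. Bace2, a protease, was 525 to 2214 CPM in SCs and at most 245 CPM in nascent HCs (median 0), and Ceacam16, a protein of the tectorial membrane, had medians of 1536 and 0.451 CPM. Sox10 was 0 to 314 CPM in SCs (median 106) and above 1 CPM in 2 nascent HCs. Anxa5, a calcium-dependent membrane-binding protein, was kept at 654 to 3976 CPM, against 450.4 to 3263 CPM in SCs and 0 to 876 CPM in OHCs. Fbxo2, a ubiquitin ligase subunit of SCs and hair cells, had medians of 3625 CPM in nascent HCs, 4172 CPM in OHCs and 11106 CPM in SCs.

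The junction and epithelial list also held Mbnl2, the splicing regulator. Of the 19 genes of the list over the filter, 12 were over 4-fold higher than in OHCs and 1 was lower. The median difference was 3.46. With DESeq2 size factors 11 were higher, as Cldn9 fell within 4-fold. Of the 12, 4 were kept SC genes, Mbnl2 among them, and 7 were above both wild-type groups. Genes at 0 in OHCs, such as Cdh1 and Cldn3, could pass the filter only through their nascent HC level. The 12 is thus not read against the 20.2% of all genes. Krt8 and Krt18, the paired keratins of simple epithelia, were on in nascent HCs, Krt8 at 398 to 7115 CPM and Krt18, in 15 of 16 cells, above 1 CPM and up to 1908 CPM. Krt8 had a median of 0 in both OHCs and SCs, and its nascent HC level was over 4-fold above both. Cldn3, a claudin of tight junctions, was 62.3 to 1506 CPM in nascent HCs and 0 in every OHC, with an SC median of 0. Cldn9, a claudin that hair cells need, was 1045 to 7355 CPM in nascent HCs, 3.94 to 1595 CPM in OHCs and 718 to 2495 CPM in SCs. Epcam, an epithelial adhesion molecule, had medians of 400.4, 100.1 and 953 CPM in the 3 groups. Cldn14, a claudin of hair cells and SCs, was the lower gene, at medians of 0, 200.3 and 248 CPM, and its nascent HC level came from cell 2 (631 CPM).

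**Figure D4:**
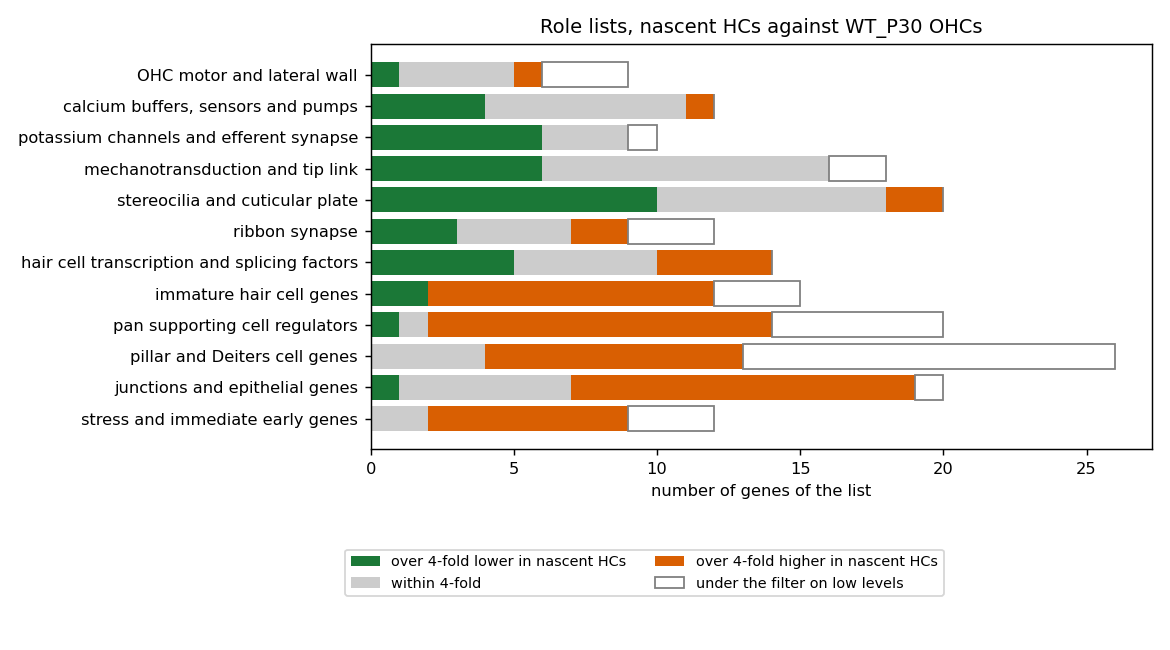
Each bar is a list of genes by role, its length the number of genes listed, split into genes over 4-fold lower in nascent HCs than in WT_P30 OHCs (green), within 4-fold (grey), over 4-fold higher (orange) and under the filter on low levels (white). Green is longest for stereocilia genes (10 of 20), and orange for SC regulators and the junction and epithelial list, which holds Mbnl2 (12 each).

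Nascent HCs also had 766 genes over 4-fold above both wild-type groups. With the filter on the wild-type levels alone the count was 175. The largest separated differences were those of Anxa4, Atoh1, Krt7, Cd63, Fzd9, Cldn3, Dll3 and Mfng. Anxa4, a calcium-dependent membrane-binding protein, was 406 to 6383 CPM in nascent HCs (median 3063) and 0 to 227 CPM in SCs, with 1 read in the OHCs. Cd63, a tetraspanin of endosomes, was 19.2 to 1850.0 CPM in nascent HCs and had no read in SCs. Fzd9, a Wnt receptor, was 70.3 to 1797 CPM, and Mfng, which modifies Notch, 23.4 to 1547 CPM, with OHCs at 0 for both and SCs at most 59.3 CPM and 0 CPM. Lgr5, a Wnt pathway receptor of cochlear progenitors, had a median of 70.4 CPM in nascent HCs and 0 in OHCs and SCs. It was 24.8-fold above the SC level.

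The nascent HCs differed among themselves. Lhfpl5, Calb2 and Snap25, which encodes a SNARE protein of vesicle fusion, were each on in the same 10 cells (1, 2, 4, 5, 6, 8, 9, 10, 12 and 13). Lhfpl5 was 229 to 4398 CPM in these and at most 2.34 CPM in the other 6, Calb2 122 to 6754 CPM and at most 3.06 CPM, and Snap25 99.8 to 569 CPM and at most 0.322 CPM. In OHCs Lhfpl5 was on in all 17 cells. Krt7, a keratin of simple epithelia, was 2023 to 8011 CPM in those other 6 cells (3, 7, 11, 14, 15 and 16) and at most 498 CPM in the 10. This split of Krt7 was drawn at 1000 CPM. By its widest gap Krt7 was on in 14 cells, at 26.3 CPM or more, and at most 0.517 CPM in cells 9 and 13. The glutamate transporter Slc1a3 was 73.4 to 839 CPM in 5 of the 6 (3, 7, 14, 15 and 16) and at most 1.03 CPM in the rest, and had no read in OHCs or SCs. The 10 cells came from library series B (cells 1, 4, 5, 6 and 8), C (9), D (10, 12 and 13) and E (2). The other 6 came from A (3), B (7), D (11) and E (14, 15 and 16). Whether the sets follow the series was not tested. These sets of cells were read off the values, so they are given as a description and nothing was averaged over them.

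Of the 510 missing genes, nascent HCs held 63 to 191 at 10 CPM or more (median 86.5), OHCs 258 to 333 and SCs 51 to 78. Nascent HC 2 held the 191, and the next cell 124. Of the 760 OHC genes within 4-fold, nascent HCs held 345 to 518, OHCs 306 to 393 and SCs 102 to 173. Of the 737 kept SC genes, nascent HCs held 427 to 557, SCs 429 to 520 and OHCs 50 to 121. These counts use the genes' classes, which were set from the same cells, and describe how evenly the cells carried them. Cell 2 was the source of most or all nascent HC reads of Pou4f3, Myo15, Chrna10, Grxcr1, Grxcr2, Xirp2 and Ptprq. Without it 529 genes were missing in place of 510. Xirp2, an actin-binding protein of stereocilia, was 127 CPM in it and 0 to 684 CPM in OHCs, and Ptprq, a phosphatase of the hair bundle, 290 CPM in it and 0 to 657 CPM in OHCs. It had 15.7 CPM of Slc26a5 and no read of Tmc1.

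**Figure D5:**
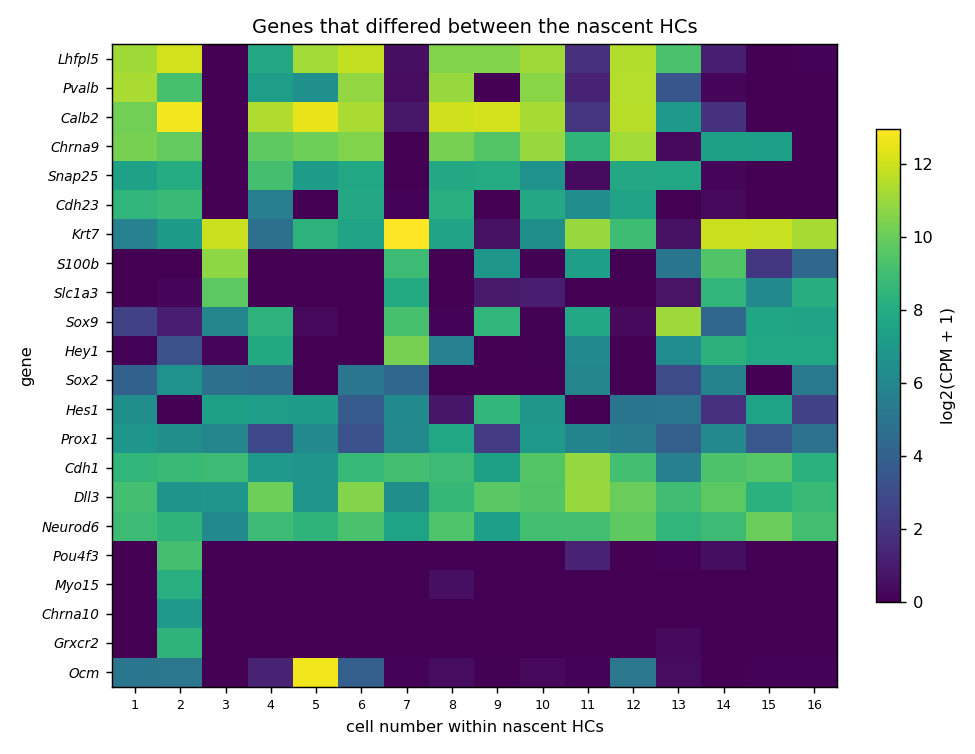
Rows are genes that differed between the nascent HCs, columns the 16 cells, and colour is log2(CPM + 1). Lhfpl5, Calb2 and Snap25 are bright in the same 10 cells. Krt7 is highest in the other 6 but is on, at 26.3 CPM or more, in 14 of the 16. In the lowest rows Pou4f3, Myo15, Chrna10 and Grxcr2 are bright in cell 2 and Ocm in cell 5.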

How the data were processed

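Cochlear cells labelled with Tdtomato were picked by hand, and cDNA was made with a Smart-Seq HT kit. The unit is read counts by gene, raw, in 1 matrix that the authors deposited, and the submitters' processing notes name FastQC 0.11.9, Trimmomatic 0.39, HISAT2 2.1.0, StringTie 1.3.5, HTSeq 0.10.0 and the build mm10 (GRCm38). Annotation release and strand setting are not given in the sources used here. Counts carry no molecular identifiers, so intervals cover counting error only. No 2 cells had identical counts. A row for WPRE, not a mouse gene, held 0.0254% of counts and was left out. From the deposited counts, CPM were computed on TMM-scaled library sizes over all 75 cells (edgeR 4.0.16, R 4.3.3), and DESeq2 1.42.0 gave size factors as an alternative. The level of a group is the mean CPM over its cells. Differences are of log2(level + 1), over genes with a mean of both levels of at least 10 CPM, and "over 4-fold" means a difference over 2. On this scale the change of low genes is understated. Stated folds are plain ratios of levels, and where a group had no read they are lower bounds against a floor of 3 reads per cell. Each sample is 1 cell and no animal is named, so no test was run. Ranges are the lowest and highest cell. The text names the marker genes given with the comparison, genes of the role lists, the 12 genes in each direction and the 8 in each class with the largest difference among those whose groups do not overlap, and a few genes chosen after their values were seen (Cck and Apoc3). Members and lists were chosen with earlier results of these data known. Scripts were tested on simulated data. Coordinates are from GENCODE on GRCm38 and upstream windows from RefSeq on GRCm38.p6. Python 3.11.15, numpy 2.4.6, pandas 2.3.3, scipy 1.17.1 and matplotlib 3.10.9 were used. Some members of the lists are counted but their values are not reported here.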

Additional observations from a re-analysis of the deposited data

How the results depend on the processing

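No paired analysis was possible because no test was made and the cells share no numbers across groups that name an animal. The counts of genes moved by over 1.5 times with DESeq2 size factors (1113 lower, 802 missing), with a pseudocount of 10 CPM (408 lower, 1070 higher, 304 missing, 291 kept, 470 above both), with a filter at 1 CPM or none (1617, 3481, 1121, 1318 and 1467, in the same order), with a filter at 50 CPM (283, 645, 220, 218 and 298), with the median over cells as the level (413, 3426, 333, 1804 and 1424), with 2-fold (1396, 3340, 1043, 1131 and 1628) and with 8-fold (414, 1189, 296, 480 and 491) in place of 4-fold. With a pseudocount of 0.1 CPM the Cdh1 difference was 12.30 and the median of SC regulators 6.30, and with 10 CPM Cdh1 was 5.69, Slc26a5 -7.06, SC regulators 3.42 and potassium channels -3.51, all on the log2 scale. Potassium channels were at -3.58 with no filter, and stereocilia genes at -3.52 with a filter at 50 CPM. With the median over cells Slc26a5 was -10.64, Ocm -14.32, calcium genes -3.69, stereocilia genes -3.99, immature hair cell genes 6.52 and stress genes 6.48. The Ocm difference was -11.71 without library series B and between -11.54 and -5.90 when nascent HC 2, 5 or 13 was left out, which was chosen after seeing the data. Leaving these cells out gave 679 to 723 lower, 1836 to 1880 higher, 508 to 529 missing, 735 to 754 kept and 755 to 767 genes above both. The filter on the wild-type levels alone, also chosen after seeing the data, left 175 genes above both in place of 766, since it drops genes that are on only in nascent HCs. Of the other values under these alternatives, 70 counts moved by 1.5 times or less. The limit for a list median was the SD, over nascent HCs, of each cell's median difference, and 219 stayed within it. For named genes the limit was the larger of the 2 groups' SDs over cells on the log2 scale. Of their values 2683 stayed within it and 149 moved past it, the Cdh1, Slc26a5 and Ocm values above among them. No value that was past 4-fold changed its direction. Library size alone, TMMwsp, summed counts and thinning left each of the 5 counts of genes within 1.5 times. Causes of these moves were not tested, apart from the fewer or more genes a filter admits.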

Other observations

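Cholecystokinin (Cck), a peptide hormone and neuropeptide, and apolipoprotein C3 (Apoc3), a protein of plasma lipoproteins, were chosen after their values were seen. Cck was 242166 CPM in nascent HC 13 and 92246 CPM in nascent HC 4, which is 15.3% and 8.14% of all counts of these cells, and at most 515 CPM in the other 14. It had no read in any WT_P30 OHC, WT_P60 SC or SC failing to become a HC, and reached 14670.4 CPM in OHC-like cells. Nascent HC 13 was also the nascent HC with the fewest genes detected, 6856, and with the largest share of counts in 10 genes, 26.0%. Apoc3 was 566 to 51502 CPM in 11 nascent HCs and at most 34.7 CPM in the other 5. It had no read in OHCs, at most 31.1 CPM in WT_P60 SCs, and reached 50323 CPM in SCs failing to become HCs.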
